A study of Mus musculus with 24 samples.

Results

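Interferon-stimulated genes are the genes that cells switch on when they sense a virus or receive an interferon. The set described here holds 45 mouse genes of that kind, taken from a named list, and every one was found in the reference annotation. The annotation used for comparison holds 21631 protein-coding genes on the autosomes and the X chromosome, of which 43 of the 45 are part, since Mx1 and Mx2 are annotated there as transcribed pseudogenes. The list was drawn up after earlier results of these data were known, and 6 of its genes had been selected on measured values, as genes that lost a strong MLL1 region: Trim56, Uba7, Cmpk2 and Trim25 in the NUP98-NSD1 line, Irgm1 in NUP98-HOXA9 and Parp14 in NUP98-HOXD13. MLL1 binding in DMSO and the MLL1 changes in those 3 lines therefore describe a chosen set. They are set beside the value over all genes and not read against it.

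Interferons bind receptors on the cell surface, and the kinases attached to these receptors phosphorylate STAT proteins. A complex that contains STAT2 and IRF9 then binds the interferon-stimulated response element in promoters, and a second promoter element of the pathway is the gamma-activated site. The genes switched on in this way encode sensors of foreign RNA, GTPases that attack vacuoles and viruses, enzymes that degrade RNA or deplete nucleotides, the machinery that attaches the ubiquitin-like protein ISG15, and parts of the antigen-presentation pathway. MLL1 is a histone methyltransferase that places methyl groups on lysine 4 of histone H3 at promoters, and Menin is the scaffold protein that it binds.

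The study measured where MLL1, Menin and trimethylated lysine 4 of histone H3 (H3K4me3) lie on the genome by chromatin immunoprecipitation sequencing (ChIP-seq). The cells were cultured mouse leukaemia cells, grown with serum, IL-3, IL-6 and SCF, and each line is named after a fusion of the nuclear pore gene NUP98 with HOXA9, HOXD13, JARID1A or NSD1. They received the solvent DMSO or VTP50469, an inhibitor of the contact between Menin and MLL1. Of 24 libraries, 14 came with lists of bound regions, and the 10 libraries of input chromatin were not analysed here. Region names inside both MLL1 lists of NUP98-HOXD13 carry a different sample number from the titles, with the same barcodes, and the lists were used as assigned to their samples. The lists form 7 pairs. MLL1 was mapped in all 4 lines, Menin in the HOXA9 and HOXD13 fusion lines, and H3K4me3 in the HOXA9 fusion line. The labels give 2 µM VTP50469 for every treated library except MLL1 in NUP98-NSD1, for which they give 200 nM, although the treatment protocol names the higher dose. The time was 96 h, except for both MLL1 libraries of NUP98-HOXA9, at 72 h. Each condition had 1 library, so no difference below has a replicate check or a test. A shorter list after treatment can come from less binding or from a less enriched or shallower library, and these cannot be told apart from the lists.

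A gene was called bound where a region lay within 1 kb of either annotated end, and lost where a gene bound in DMSO had no such region after VTP50469. The covered length is the number of bases within the gene and 2 kb on either side that lie in a region. This span reaches Agrn at Isg15, Phrf1 at Irf7, Rnf31 at Irf9, Apof at Stat2, Kat2a at Dhx58 and Vat1 at Ifi35. It also reaches Patl2 at B2m, Gbp2b at Gbp2, Gm26637 at Eif2ak2, and Ifit1bl1 and Ifit1bl2 at Ifit1. Other neighbours are named below, and covered bases may belong to a neighbour. Values given as a pair are DMSO first and VTP50469 second. MLL1 lists of NUP98-HOXA9 contained 22534 and 21739 regions, those of NUP98-HOXD13 20154 and 14744, those of NUP98-JARID1A 15765 and 24950, and those of NUP98-NSD1 7113 and 1036. For Menin the NUP98-HOXA9 lists contained 9050 and 403 regions and the NUP98-HOXD13 lists 18826 and 16706, and the H3K4me3 lists contained 9443 and 9567. As a check of the cell type, H3K4me3 in DMSO lay at the ends of 5 of 7 haematopoietic marker genes (all genes 37.3%). It lay at 0 of 6 markers of other tissues, and this mark was mapped in the HOXA9 fusion line alone. With the lines in the order above, MLL1 in DMSO lay at 7, 7, 6 and 3 of the 7 haematopoietic markers. Of the 6 other markers it lay at 0, 1, 0 and 0. Menin in DMSO lay at 3 of 7 and 0 of 6 in the HOXA9 fusion line. In the HOXD13 fusion line it lay at 6 of 7 and 2 of 6.

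Many promoters of the set carried the motif of the interferon-stimulated response element. RefSeq promoters of 300 bases (GRCm38.p6, 250 before the start of transcription and 50 from it on) were found for 36 of the 45 genes. The letters GAAANNGAAA, searched on both strands as the core of the interferon-stimulated response element, stood in 19 of these 36 promoters (52.8%) and in 593 of all 17274 promoters (3.43%). The letters TTCNNNGAA, the gamma-activated site, stood in 12 of the 36 (33.3%) and in 1362 of the 17274 (7.88%). Both motifs stood in 7 of these promoters and neither in 12. A match describes the letters only and shows no bound factor. MLL1 regions overlapped the promoters of 12 genes with the response element in all 4 DMSO lists, and 9 of the 12 have the match before the start of transcription. The 6 of these with the longest MLL1 covered length in DMSO are printed to show where the motif lies in promoters covered by MLL1 in every line. Each is written 5′ to 3′ on the gene's strand, and the capitals mark the response element. Irgm2 (chr11:58214727-58214976, plus strand), Irgm1 (chr11:48871421-48871670, minus strand), Igtp (chr11:58199306-58199555, plus strand) and Gbp2 (chr3:142620413-142620662, plus strand) encode interferon-inducible GTPases. B2m (chr2:122147437-122147686, plus strand) encodes the light chain of MHC class I, and Bst2 (chr8:71537473-71537722, minus strand) tetherin, which holds budding viruses at the cell surface.
Irgm2: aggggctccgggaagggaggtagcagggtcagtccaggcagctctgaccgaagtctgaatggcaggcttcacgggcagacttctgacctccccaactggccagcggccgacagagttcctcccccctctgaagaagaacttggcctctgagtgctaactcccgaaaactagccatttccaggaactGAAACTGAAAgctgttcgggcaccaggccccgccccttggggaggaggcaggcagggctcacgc
B2m: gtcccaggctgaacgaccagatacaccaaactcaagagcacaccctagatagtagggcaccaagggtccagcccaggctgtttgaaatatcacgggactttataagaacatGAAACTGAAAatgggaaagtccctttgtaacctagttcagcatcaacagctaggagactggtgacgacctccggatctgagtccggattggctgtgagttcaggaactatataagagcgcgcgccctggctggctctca
Irgm1: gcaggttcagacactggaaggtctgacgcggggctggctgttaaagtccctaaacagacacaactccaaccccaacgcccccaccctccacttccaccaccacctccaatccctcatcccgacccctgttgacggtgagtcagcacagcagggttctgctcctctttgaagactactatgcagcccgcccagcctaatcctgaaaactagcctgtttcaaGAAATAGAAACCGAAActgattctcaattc
Igtp: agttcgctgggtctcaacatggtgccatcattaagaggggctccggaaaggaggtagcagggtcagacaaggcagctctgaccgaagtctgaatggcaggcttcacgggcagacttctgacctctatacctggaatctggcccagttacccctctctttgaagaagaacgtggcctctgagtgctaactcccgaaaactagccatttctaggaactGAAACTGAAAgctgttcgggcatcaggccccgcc
Bst2: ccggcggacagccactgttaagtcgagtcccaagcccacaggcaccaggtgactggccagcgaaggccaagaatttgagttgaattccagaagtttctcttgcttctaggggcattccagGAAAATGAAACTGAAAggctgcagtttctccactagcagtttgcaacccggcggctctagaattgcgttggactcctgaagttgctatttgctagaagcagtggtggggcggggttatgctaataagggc
Gbp2: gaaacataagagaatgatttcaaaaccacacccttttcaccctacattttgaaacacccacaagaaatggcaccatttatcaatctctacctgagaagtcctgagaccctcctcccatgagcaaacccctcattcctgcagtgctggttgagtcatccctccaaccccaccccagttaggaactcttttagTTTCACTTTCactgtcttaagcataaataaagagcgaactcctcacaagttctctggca
In Irgm1 and Bst2 a pair of matches overlap, and in Gbp2 the match lies on the opposite strand. Laid side by side at the best shift without gaps, the promoters of Irgm2 and Igtp are 68.1% identical over 270 bases. They share a run of 61 bases, so reads from this stretch of the 2 genes may have been placed uncertainly. Tgtp1 and Tgtp2 are near-identical copies as genes, and their regions carry the same limit. Their promoters are 51.7% identical over 292 bases by the same comparison. An insertion or deletion lowers such a value, so it does not show how far the promoters differ.

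The distance from each MLL1 summit, the point of highest signal within a region, to the nearest response element is given as a description. In NUP98-NSD1 its median was 47.0 bp over 16 genes, and the other medians were 57.5 bp over 14 genes in NUP98-HOXA9, 45 bp over 16 in NUP98-HOXD13 and 53.5 bp over 15 in NUP98-JARID1A. Motifs were searched only near the start of transcription, where the summits also lie, so short distances follow from the search itself. Over the genes with a start in the promoter table, the median MLL1 summit lay at -7.00 bp from that start in NUP98-HOXA9, at 22.0 bp in NUP98-HOXD13 and in NUP98-JARID1A, and at 26.0 bp in NUP98-NSD1. H3K4me3 summits in DMSO lay downstream of the start at all 18 marked genes whose start is in the promoter table, at a median of 254 bp. Among promoters overlapped by MLL1 in NUP98-NSD1, 15 of 24 in the set (62.5%) and 132 of all 3424 (3.86%) held the response element, close to the shares among promoters at large.

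**Figure D1:**
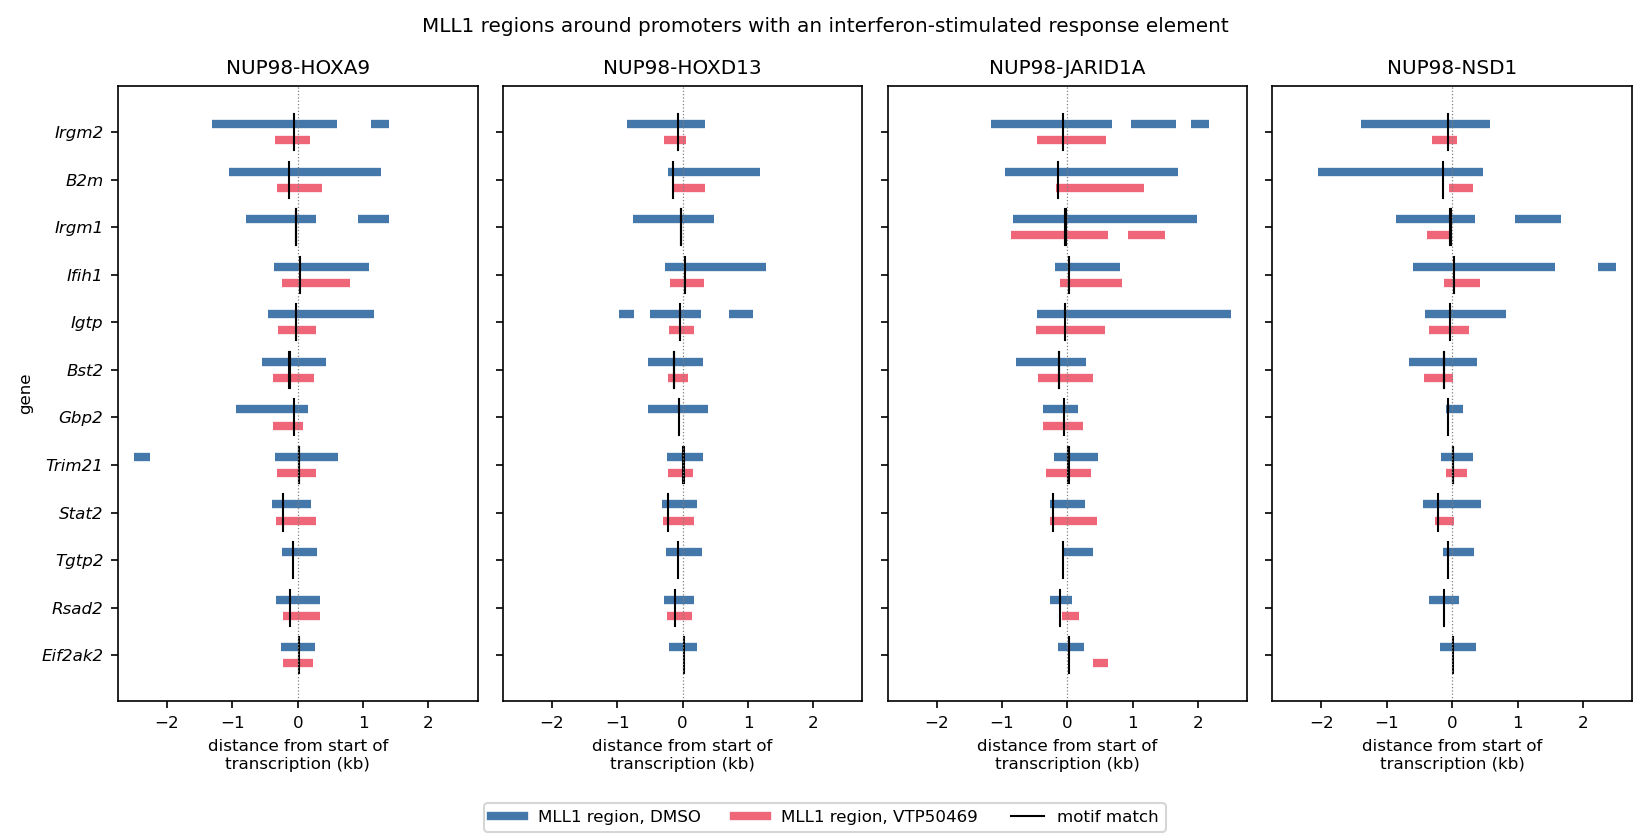
MLL1 regions around the start of transcription (x axis, kb) of the 12 genes with a response element and MLL1 over the promoter in all 4 DMSO lists, in 4 lines. Blue bars are regions in DMSO, red bars regions after VTP50469 and black ticks motif matches. Tgtp2 has no red bar in any line, and Irgm1 has none in NUP98-HOXA9 or NUP98-HOXD13.

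MLL1 lay at the ends of most of the set in DMSO. It bound 35 of 45 genes in NUP98-HOXA9 (all genes 45%), 38 in NUP98-HOXD13 (all genes 45.6%), 35 in NUP98-JARID1A (all genes 41.2%) and 34 in NUP98-NSD1 (all genes 22.1%). All 4 lines shared 29 bound genes (64.4%, all genes 21.0%). These include all 6 genes selected on MLL1 loss, so the MLL1 shares are not read against those over all genes. Ifit3, Oas2, Oasl2 and Mx1 had no gene-end MLL1 region in any DMSO list. Menin bound 16 genes in NUP98-HOXA9 (all genes 27.8%) and 29 in NUP98-HOXD13 (all genes 44.9%), and H3K4me3 marked 21 (all genes 37.3%).

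**Figure D2:**
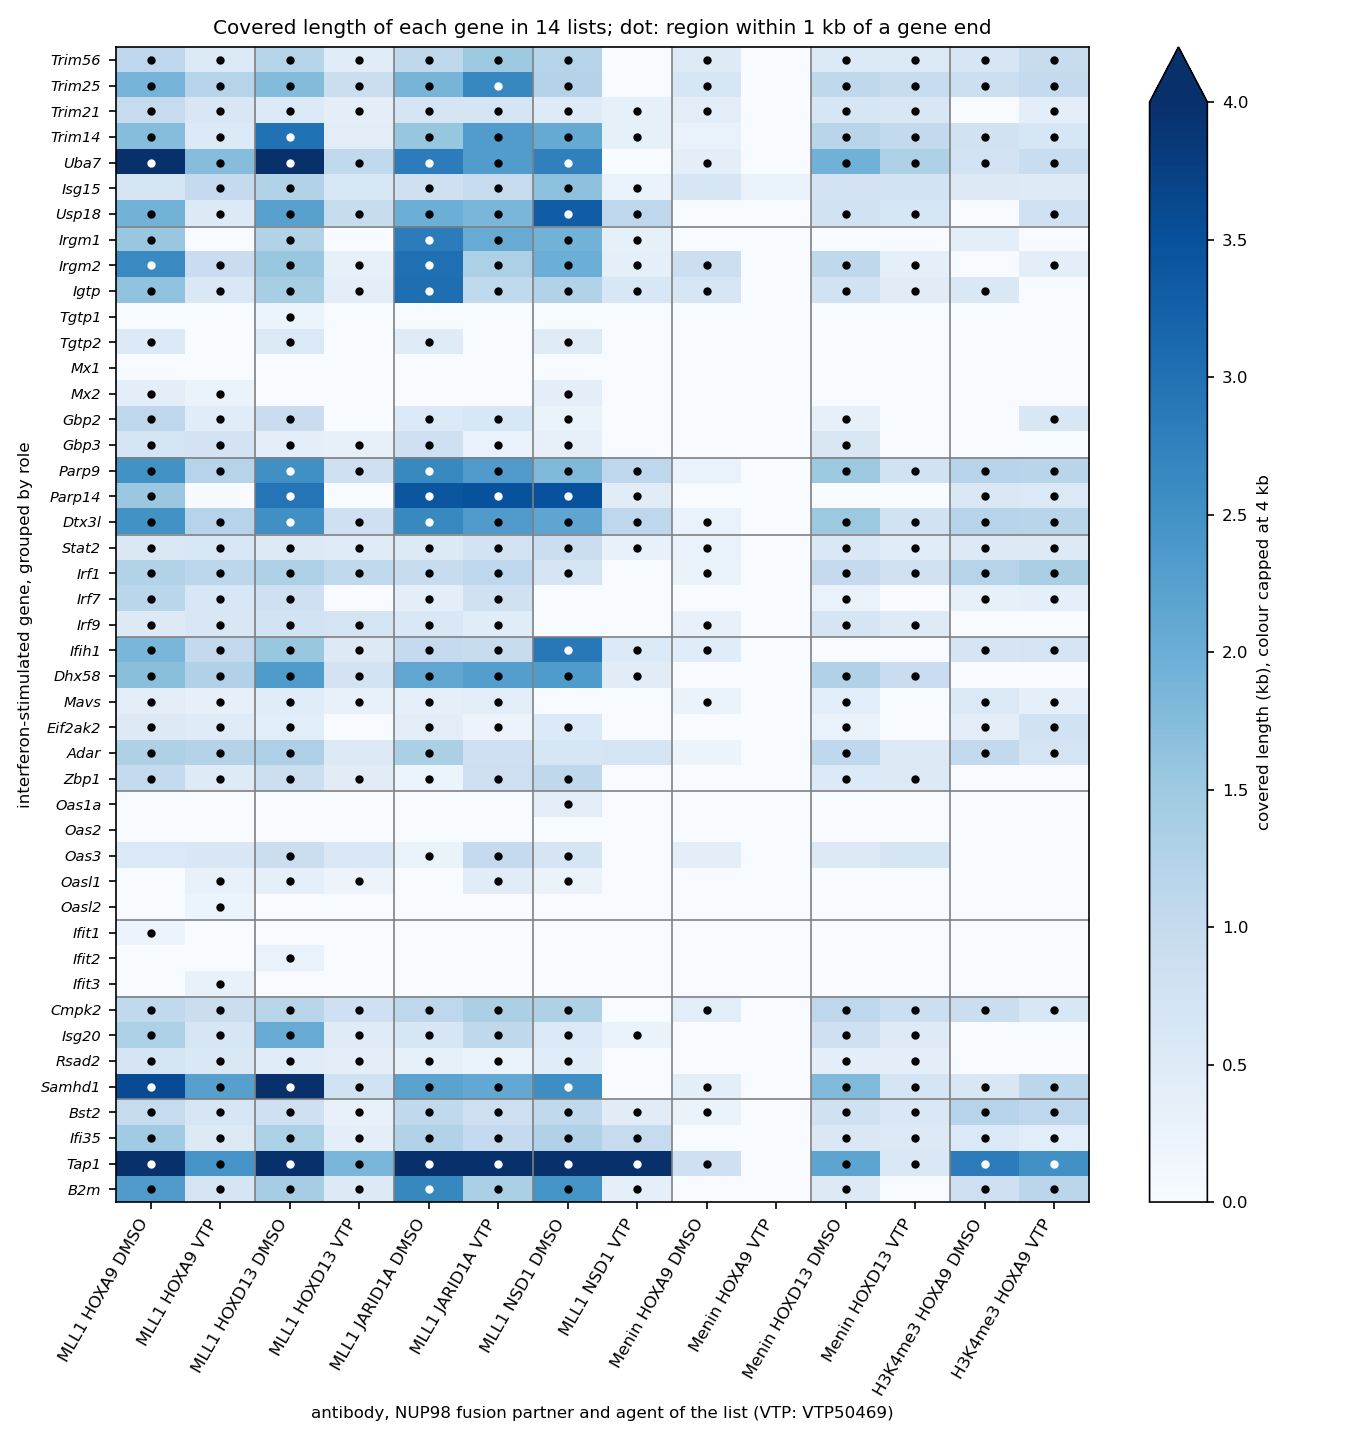
Covered length (colour, kb, capped at 4 kb) of the 45 genes (vertical axis, grouped by role) in the 14 lists (horizontal axis). Dots mark a region within 1 kb of a gene end. The OAS and IFIT genes are nearly empty, Tap1 and Uba7 are the darkest, and the Menin list of NUP98-HOXA9 after VTP50469 holds 273 bp, at Isg15.

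The authors' fold over background is used here only within a list, and NUP98-NSD1 is described first. The strongest region of the whole DMSO list, first of 7113 with a fold of 83.2, lay at Usp18, whose product removes ISG15 from proteins and dampens interferon receptor signalling. Ifih1, the RNA sensor MDA5, ranked 8 with a fold of 38.5, and Tap1, a subunit of the transporter that loads peptides onto MHC class I, ranked 11 with 36.1. The strongest Tap1 region had its summit 10781 bp from the start of Tap1 in NUP98-NSD1 and 10794 bp in NUP98-JARID1A, beyond the 3′ end, so that it may belong to a neighbouring gene, of which Psmb8 and Psmb9 lie within 2 kb. Irgm2, Igtp, the shared region of Parp9 and Dtx3l, Trim56 and Ifi35 ranked 18, 19, 20, 30 and 47. In all, 9 genes lay in the top 1% of regions and 21 of 34 bound genes (61.8%) in the top 10%. The shared region of Parp9 and Dtx3l counts for both genes in these numbers, which describe the set alone. The shares of all bound genes in these ranks were not counted, in this line or in NUP98-JARID1A. Ranks run over all regions of a list, while each gene takes its strongest gene-end region. So 1% and 10% are not the shares over all genes. The median fold was 14.9 over the bound genes of the set and 6.34 over all bound genes. Trim56, Trim25, Uba7 and Cmpk2 were chosen for the fold of their lost regions in this line and count among the 21. Without the 6 genes selected on MLL1 loss, 8 genes lay in the top 1% and 15 of 28 in the top 10%, with a median fold of 11.5. In NUP98-JARID1A the medians were 14.2 and 10.8, with Tap1 (rank 21) and Usp18 (rank 67) in the top 1% and 14 genes in the top 10%. Without the same 6 genes the NUP98-JARID1A median was 9.24, below that of all bound genes, with 9 genes in the top 10%. No gene of the set reached the top 1% in NUP98-HOXA9 (medians 15.0 and 15.3) or NUP98-HOXD13 (12.0 and 14.4). For Menin the medians were 7.65 against 9.12 in NUP98-HOXA9 and 13.0 against 19.3 in NUP98-HOXD13, and for H3K4me3 6.41 against 7.17. After VTP50469, Usp18 was still at rank 3 of the 1036 regions left in NUP98-NSD1 (fold 24.6), with Ifih1 at rank 11, Igtp at 13 and Tap1 at 24.

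**Figure D3:**
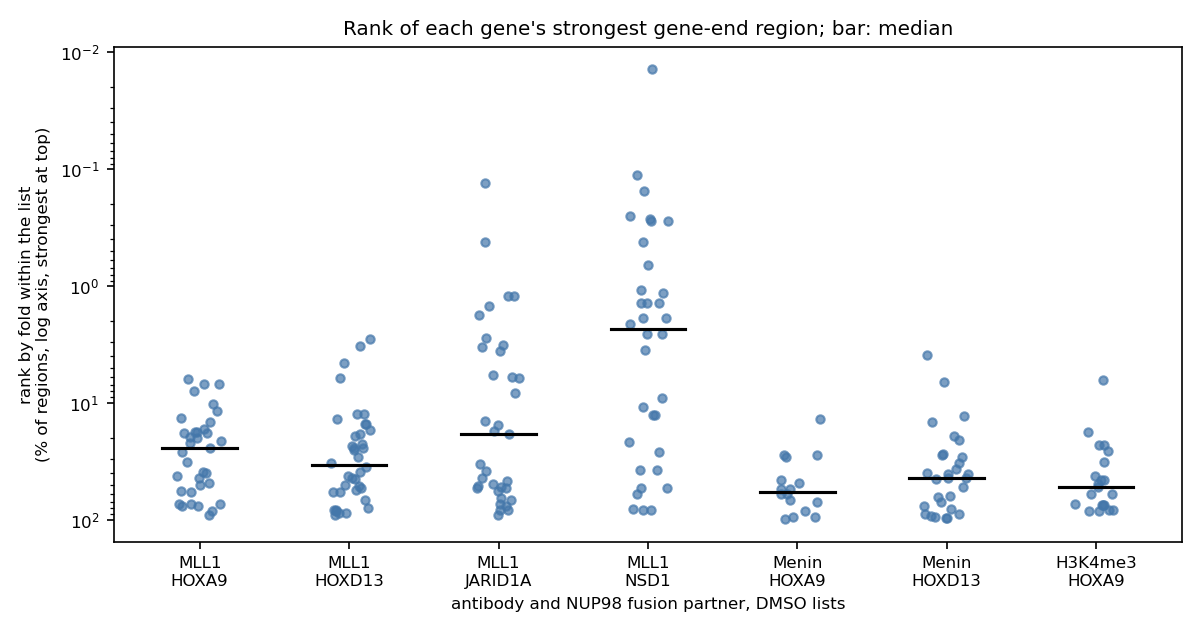
Rank of each gene's strongest gene-end region within its DMSO list, as a percentage of the list's regions (vertical log axis, strongest at the top), for 7 lists. Each point is 1 gene and each bar a median, and Parp9 and Dtx3l have separate points for a shared region. NUP98-NSD1 has 9 points in the top 1% and NUP98-JARID1A 2.

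Losses after VTP50469 are given line by line. In NUP98-HOXA9, 4 of 35 bound genes lost MLL1 (11.4%, all genes 3.93%): Irgm1, Tgtp2, Parp14 and Ifit1. Without the 6 genes selected on MLL1 loss, which include Irgm1 and Parp14, the count was 2 of 29. In NUP98-HOXD13 12 of 38 did (31.6%, all genes 12.2%), and 8 of them kept no covered base: Irgm1, Tgtp1, Tgtp2, Gbp2, Parp14, Irf7, Eif2ak2 and Ifit2. The remaining losses there were Trim14, Isg15, Adar and Oas3. Irgm1 and Parp14 are among the genes selected on MLL1 loss, Parp14 in this line. In NUP98-JARID1A 2 of 35 lost MLL1 (5.71%, all genes 1.01%), Tgtp2 and Adar. In NUP98-NSD1 16 of 34 lost it (47.1%, all genes 86.2%), so that 18 of the 778 genes bound after treatment in this line belonged to the set. The 16 were Trim56, Trim25, Uba7, Tgtp2, Mx2, Gbp2, Gbp3, Irf1, Eif2ak2, Zbp1, Oas1a, Oas3, Oasl1, Cmpk2, Rsad2 and Samhd1. Of these, Trim56, Trim25, Uba7 and Cmpk2 were selected for their loss in this line, so their losses were fixed by the selection. Length of the list matters to these counts. With both lists of a pair cut to equal length, 10 of 35 genes were lost in NUP98-JARID1A (all genes 10.4%), 7 of 32 in NUP98-HOXD13 (all genes 7.36%) and 6 of 23 in NUP98-NSD1 (all genes 65.8%).

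The covered length showed more of the set becoming shorter than lost. It was at most 50% of its DMSO value at 17 of 37 covered genes in NUP98-HOXA9 (45.9%, all genes 12.8%) and at 26 of 38 in NUP98-HOXD13 (68.4%, all genes 30.4%). The counts were 4 of 35 in NUP98-JARID1A (11.4%, all genes 2.51%) and 29 of 35 in NUP98-NSD1 (82.9%, all genes 94.1%). In lists of equal length they were 9 of 35 in NUP98-JARID1A (all genes 11.3%) and 17 of 25 in NUP98-NSD1 (all genes 86.8%). Every covered gene of the set was shorter in NUP98-HOXD13, where 10374 of the 11562 covered genes among all genes were shorter too. Summed over the set, MLL1 in NUP98-HOXA9 covered 55464 bp with DMSO and 29404 bp with VTP50469, so that 53.0% was left (all genes 76.6%). In NUP98-HOXD13 58896 bp became 18584 bp, or 31.6% (all genes 58.3%). In NUP98-JARID1A the sum was 54812 bp and then 51869 bp, or 94.6%, where all genes together stood at 131%. In NUP98-NSD1 53423 bp became 14307 bp, or 26.8% (all genes 9.40%). Of the 14307 bp, Tap1 held 4304 bp, over a span shared with Psmb8 and Psmb9. Parp9 and Dtx3l, which share a region, held 1095 bp each. All these sums include the genes selected on MLL1 loss. The median width of the strongest regions went from 1055 to 537 bp in NUP98-HOXA9, from 1044 to 466 bp in NUP98-HOXD13, from 1008 to 975 bp in NUP98-JARID1A and from 1064 to 439 bp in NUP98-NSD1.

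**Figure D4:**
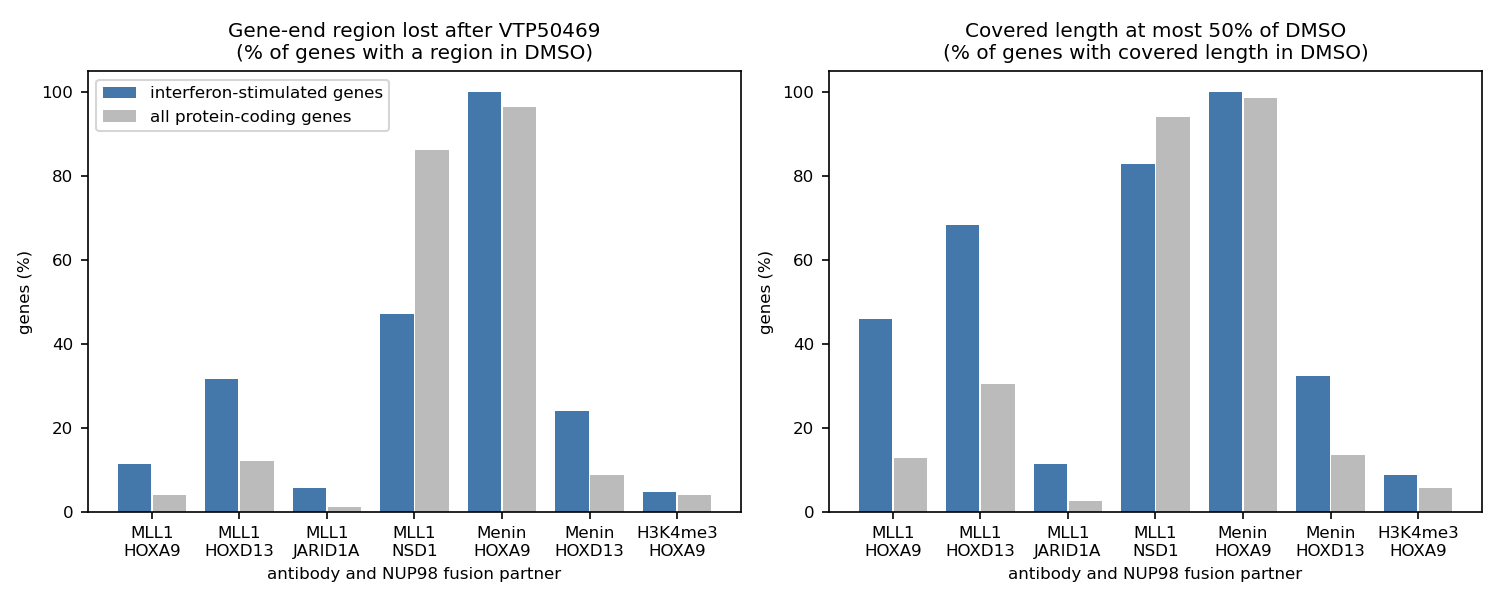
Share of genes (vertical axis, %) that lost their gene-end region (left) or kept at most 50% of their covered length (right) after VTP50469, for the interferon-stimulated genes (blue) and all protein-coding genes (grey), in 7 pairs with 1 library per condition. The blue bars are the taller ones for MLL1 in NUP98-HOXA9, NUP98-HOXD13 and NUP98-JARID1A, and the grey bars for MLL1 in NUP98-NSD1. Blue bars include the genes selected on MLL1 loss, so the colours stand side by side and are not read against each other. All bars use lists of full length, and the counts depend on that length.

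Genes gained MLL1 too. In NUP98-HOXA9 4 of 10 unbound genes had a gene-end region only after VTP50469 (40.0%, all genes 3.33%): Isg15, the OAS-like genes Oasl1 and Oasl2, and Ifit3, whose product binds viral RNA with other IFIT proteins. The −log10 q of the new regions was 11.2 at Isg15, 10.7 at Oasl1, 4.03 at Oasl2 and 2.46 at Ifit3, so the last pair fall away with a minimum of 5. Their covered lengths were 303 bp at Oasl1, 247 bp at Oasl2 and 307 bp at Ifit3. Isg15 had 661 bp covered in DMSO, outside the 1 kb window, and 1001 bp after VTP50469. In NUP98-JARID1A 1 of 10 unbound genes gained a region, Oasl1 (10.0%, all genes 11.3%). Covered length at least doubled at 3 of 35 genes there (8.57%, all genes 19.3%): Irf7, Oas3 and Zbp1. In lists of equal length Irf7 turned to shorter, with 38.4% left, while Oas3 stood at 260% and Zbp1 at 345%.

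Among the genes for ubiquitin-like conjugation and the TRIM family, Uba7 encodes the enzyme that activates ISG15. Its MLL1 covered length in NUP98-HOXA9 was 5580 bp with DMSO and 1727 bp with VTP50469, followed by 6706 and 1059 bp in NUP98-HOXD13, 2825 and 2302 bp in NUP98-JARID1A, and 2762 and 0 bp in NUP98-NSD1. The value was lower after treatment in all 4 lines, least so in NUP98-JARID1A. Menin covered 399 and 0 bp of Uba7 in NUP98-HOXA9 and 1951 and 1286 bp in NUP98-HOXD13, while H3K4me3 covered 734 and 930 bp. The counted span of Uba7 includes its neighbour Inka1. Usp18 had 1921 and 530 bp of MLL1 in NUP98-HOXA9, 2227 and 953 bp in NUP98-HOXD13, 1988 and 1856 bp in NUP98-JARID1A, and 3306 and 1109 bp in NUP98-NSD1. Its H3K4me3 was 0 bp in DMSO and 806 bp after VTP50469, and Menin covered 0 bp in NUP98-HOXA9 and 765 and 635 bp in NUP98-HOXD13. H3K4me3 and MLL1 thus differed in direction at Usp18 in NUP98-HOXA9, at 96 h and 72 h respectively.

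Trim25 encodes a ubiquitin ligase that activates the RNA sensor RIG-I. Its MLL1 covered length was 1899 and 1208 bp in NUP98-HOXA9, 1752 and 904 bp in NUP98-HOXD13, 1875 and 2663 bp in NUP98-JARID1A, and 1229 and 0 bp in NUP98-NSD1. Trim56, a ubiquitin ligase of antiviral signalling, had 1096 and 538 bp, 1202 and 464 bp, 1091 and 1511 bp, and 1200 and 0 bp in the same order of lines. Trim14, a TRIM family member that acts with the adaptor MAVS, had 1726 and 533 bp, 2999 and 413 bp, 1569 and 2306 bp, and 2069 and 340 bp. MLL1 covered length at these 3 genes was longer after treatment in NUP98-JARID1A and shorter in the other 3 lines. In NUP98-JARID1A it stood at 142% of DMSO at Trim25, 138% at Trim56 and 147% at Trim14, beside a median of 129% over all genes. Menin at Trim25 covered 645 and 0 bp in NUP98-HOXA9 and 1092 and 955 bp in NUP98-HOXD13. At Trim56 it covered 499 and 0 bp and then 546 and 544 bp, and at Trim14 273 and 0 bp and then 1169 and 1037 bp. H3K4me3 stayed listed at all 3, with 862 and 1000 bp at Trim25, 645 and 944 bp at Trim56 and 768 and 652 bp at Trim14. The span of Trim14 reaches its neighbours Nans and Coro2a. Trim21, an antibody receptor and ubiquitin ligase, kept MLL1 in all 4 lines.

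The interferon-inducible GTPases included Tgtp2, which lost MLL1 in all 4 lines. Tgtp2 encodes a GTPase that disrupts vacuoles of parasites. It had 536 bp of MLL1 in NUP98-HOXA9, 547 bp in NUP98-HOXD13, 469 bp in NUP98-JARID1A and 479 bp in NUP98-NSD1, and 0 bp after VTP50469 in each. It was the only gene of the set lost in 3 or more lines, and the share of all genes lost so often was not counted. Its NUP98-HOXA9 region in DMSO was weak, with rank 17172 of 22534 by fold (5.39) and a −log10 q of 7.88. Tgtp2 had no Menin or H3K4me3 in any list. Its copy Tgtp1 was listed in a single list, MLL1 in NUP98-HOXD13 with DMSO, with 215 bp. Irgm1, which restrains the other immunity-related GTPases, had 1543 and 0 bp in NUP98-HOXA9, 1242 and 0 bp in NUP98-HOXD13, 2818 and 2044 bp in NUP98-JARID1A, and 1910 and 341 bp in NUP98-NSD1. It had no Menin region in either line, and H3K4me3 covered 402 and 0 bp.

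Irgm2 had 2617 and 914 bp of MLL1 in NUP98-HOXA9, 1550 and 336 bp in NUP98-HOXD13, 3016 and 1316 bp in NUP98-JARID1A, and 1986 and 372 bp in NUP98-NSD1. Igtp, the neighbouring gene for IRGM3, had 1621 and 582 bp, 1367 and 395 bp, 3039 and 1060 bp, and 1237 and 616 bp. With Tgtp2, these were the genes at or below 50% of DMSO in all 4 lines, including NUP98-JARID1A, where covered length over all genes was larger after treatment. Menin at Irgm2 covered 862 and 0 bp in NUP98-HOXA9 and 1079 and 352 bp in NUP98-HOXD13, and at Igtp 629 and 0 bp and 767 and 452 bp. H3K4me3 was listed in opposite conditions at these neighbours, with 0 and 386 bp at Irgm2 and 569 and 0 bp at Igtp. Both regions were weak in their lists. The Irgm2 region ranked 9260 of 9567 by fold, with a −log10 q of 3.28. The Igtp region ranked 7729 of 9443, with a −log10 q of 7.07. Gbp2 and Gbp3, guanylate-binding proteins that coat pathogen vacuoles, had MLL1 in all 4 lines in DMSO. Gbp2 had 1107 and 462 bp in NUP98-HOXA9, 918 and 0 bp in NUP98-HOXD13, 536 and 622 bp in NUP98-JARID1A, and 265 and 0 bp in NUP98-NSD1. Gbp3 had 699 and 733 bp, 388 and 324 bp, 827 and 276 bp, and 313 and 0 bp. Both lost Menin in NUP98-HOXD13 (326 and 608 bp in DMSO). Mx2 is annotated here as a transcribed pseudogene, in a family of GTPases that act against viruses. It had 390 and 257 bp of MLL1 in NUP98-HOXA9 and 375 and 0 bp in NUP98-NSD1, and none in the other lines.

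**Figure D5:**
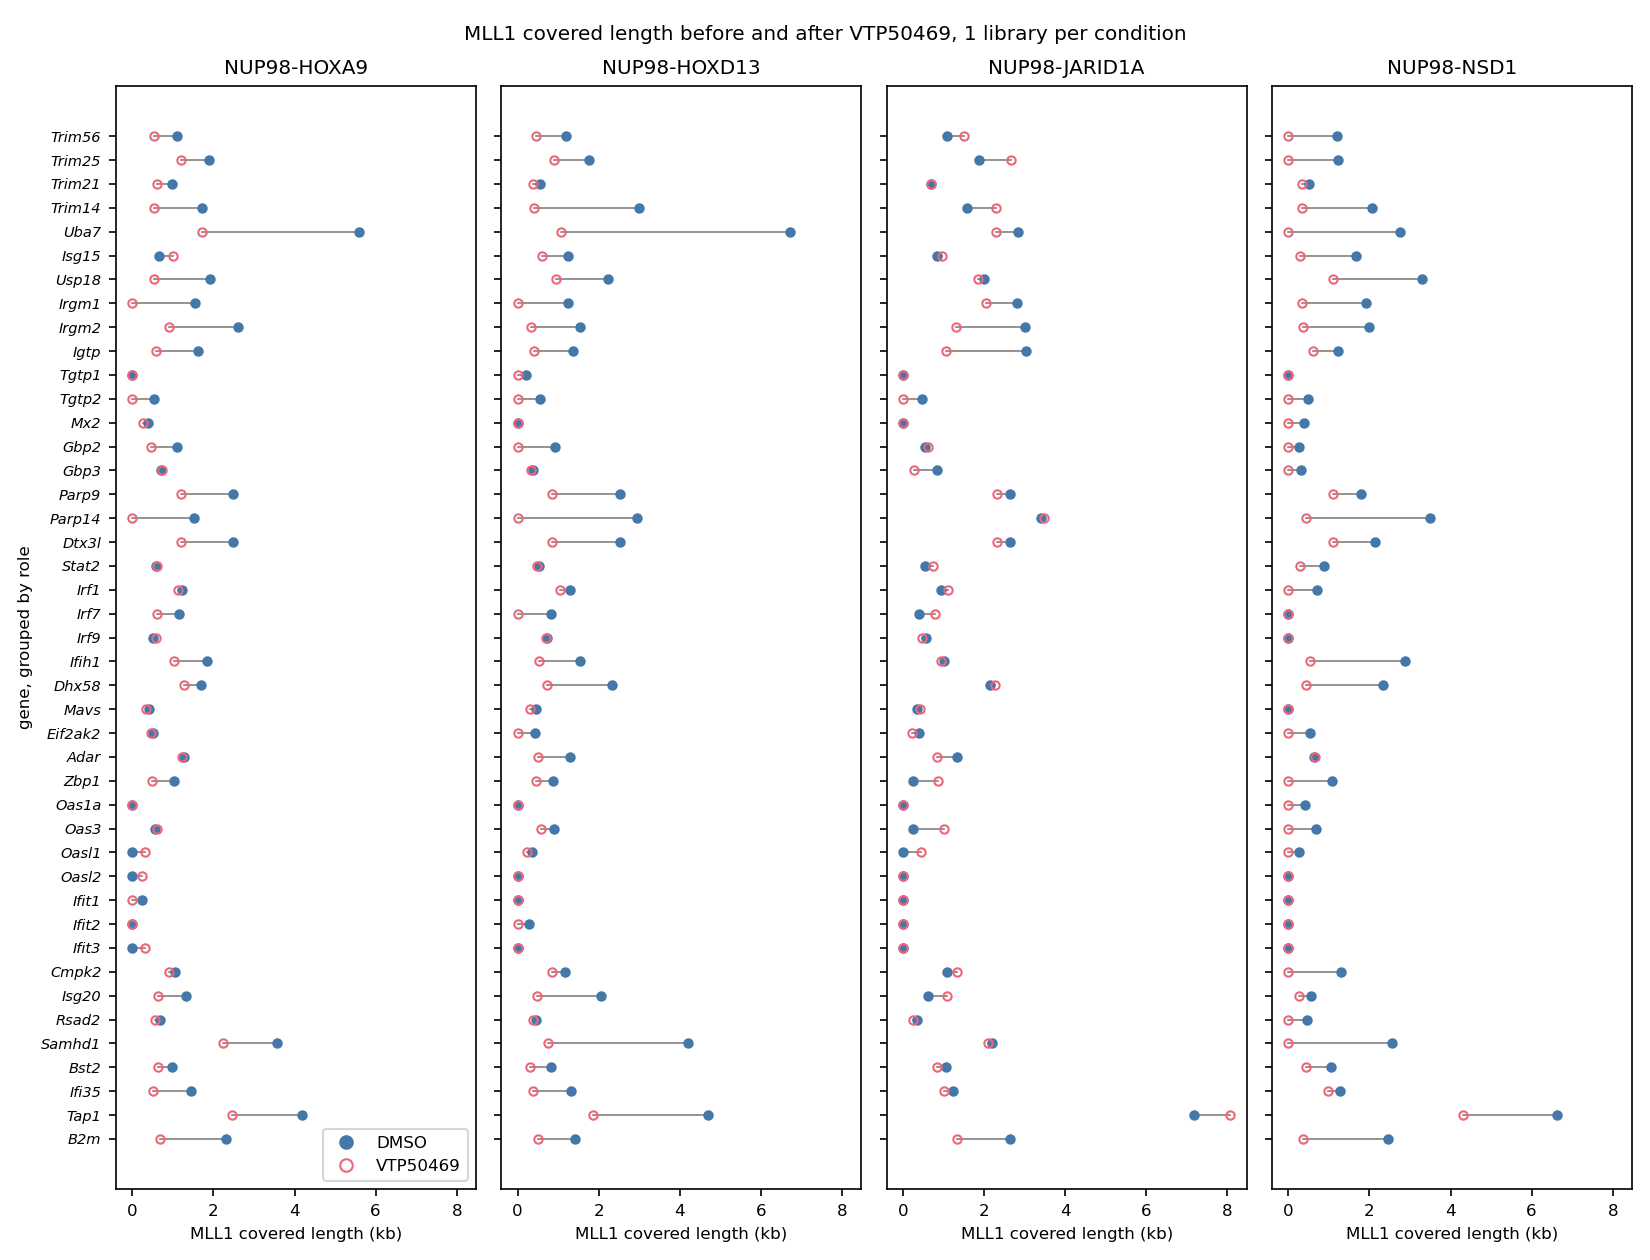
MLL1 covered length (x axis, kb) of each gene with any MLL1 coverage, in DMSO (filled blue) and after VTP50469 (open red), in 4 lines with 1 library per condition. Uba7 spans 6706 to 1059 bp in NUP98-HOXD13, and most open points lie left of the filled ones except in NUP98-JARID1A.

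Parp14, Parp9 and Dtx3l lie side by side and encode 2 ADP-ribosyltransferase family members and the ubiquitin ligase partner of PARP9. Parp14 had 1519 and 0 bp of MLL1 in NUP98-HOXA9, 2943 and 0 bp in NUP98-HOXD13, 3415 and 3485 bp in NUP98-JARID1A, and 3496 and 440 bp in NUP98-NSD1. It had no Menin in either line, and H3K4me3 covered 567 and 554 bp, so the mark was listed in both conditions in the line where MLL1 was not listed after treatment. Dtx3l had 2485 and 1212 bp, 2524 and 842 bp, 2635 and 2326 bp, and 2148 and 1095 bp of MLL1. Parp9 shares that region and its values, apart from 1789 bp in DMSO in NUP98-NSD1. Menin over both covered 267 and 0 bp in NUP98-HOXA9 and 1500 and 751 bp in NUP98-HOXD13, and H3K4me3 1184 and 1168 bp.

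The transcription factor genes had MLL1 in DMSO in 3 or 4 lines. Stat2, a subunit of the complex that binds the response element, had 592 and 619 bp in NUP98-HOXA9, 531 and 478 bp in NUP98-HOXD13, 534 and 729 bp in NUP98-JARID1A, and 891 and 293 bp in NUP98-NSD1. Irf1, which binds related elements, had 1237 and 1123 bp, 1298 and 1056 bp, 939 and 1100 bp, and 707 and 0 bp. Irf9, the DNA-binding subunit of that complex, had 501 and 595 bp, 735 and 697 bp, and 569 and 468 bp, with none in NUP98-NSD1. Irf7, which amplifies type I interferon production, had 1147 and 619 bp, 826 and 0 bp, and 391 and 783 bp, also with none in NUP98-NSD1. Only Irf7 and Irf1 lost a gene-end MLL1 region, each in 1 line.

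Among the genes of RNA sensing, Ifih1 had 1846 and 1039 bp of MLL1 in NUP98-HOXA9, 1536 and 530 bp in NUP98-HOXD13, 1008 and 950 bp in NUP98-JARID1A, and 2875 and 545 bp in NUP98-NSD1. Menin covered 454 and 0 bp of it in NUP98-HOXA9 and none in NUP98-HOXD13, and H3K4me3 667 and 715 bp. Dhx58, the sensor LGP2, had 1688 and 1278 bp, 2338 and 723 bp, 2138 and 2278 bp, and 2331 and 438 bp of MLL1. Mavs, the mitochondrial adaptor of these sensors, had 410 and 326 bp, 456 and 310 bp, and 347 and 421 bp, with none in NUP98-NSD1. The sensors Ifih1 and Dhx58 kept gene-end MLL1 in all 4 lines. Eif2ak2, the RNA-activated kinase PKR, had 514 and 469 bp in NUP98-HOXA9, 430 and 0 bp in NUP98-HOXD13, 407 and 227 bp in NUP98-JARID1A, and 545 and 0 bp in NUP98-NSD1. Adar, an RNA-editing enzyme, lost its gene-end region in NUP98-HOXD13 and NUP98-JARID1A while 507 and 834 bp remained within its counted span, which includes Chrnb2. Zbp1, a sensor of Z-form nucleic acid, had 1023 and 494 bp, 863 and 444 bp, 247 and 852 bp, and 1079 and 0 bp.

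The OAS enzymes, which activate the nuclease RNase L, and the IFIT proteins held little MLL1. Oas3 had 555 and 609 bp in NUP98-HOXA9, outside the 1 kb window in both, 903 and 577 bp in NUP98-HOXD13, 257 and 1001 bp in NUP98-JARID1A, and 673 and 0 bp in NUP98-NSD1. Menin covered 404 and 0 bp of Oas3 in NUP98-HOXA9 and 511 and 658 bp in NUP98-HOXD13, with no H3K4me3. Oas1a was listed only in NUP98-NSD1 with DMSO (415 bp), Ifit1 only in NUP98-HOXA9 with DMSO (231 bp) and Ifit2 only in NUP98-HOXD13 with DMSO (275 bp). No OAS or IFIT gene had H3K4me3 in either condition, and none had Menin at a gene end.

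Of the enzymes that act on nucleotides and nucleic acids, Samhd1 depletes deoxynucleotides. Its MLL1 covered length was 3572 and 2247 bp in NUP98-HOXA9, 4205 and 756 bp in NUP98-HOXD13, 2196 and 2105 bp in NUP98-JARID1A, and 2561 and 0 bp in NUP98-NSD1. Menin covered 390 and 0 bp in NUP98-HOXA9 and 1769 and 668 bp in NUP98-HOXD13, and H3K4me3 606 and 1116 bp, over a span that includes Tldc2. Cmpk2, a mitochondrial nucleotide kinase, had 1049 and 894 bp of MLL1, 1170 and 843 bp, 1094 and 1335 bp, and 1291 and 0 bp. Its neighbour Rsad2, the antiviral enzyme viperin, had 679 and 568 bp, 460 and 386 bp, 339 and 251 bp, and 461 and 0 bp. These 3 genes kept MLL1 in 3 lines and had none left in NUP98-NSD1. Isg20, an exonuclease, kept a region in every line, with 554 and 260 bp in NUP98-NSD1.

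The genes of antigen presentation and virus tethering kept gene-end MLL1 in all 4 lines. Tap1 had 4196 and 2450 bp in NUP98-HOXA9, 4694 and 1855 bp in NUP98-HOXD13, 7174 and 8071 bp in NUP98-JARID1A, and 6621 and 4304 bp in NUP98-NSD1, over a span shared with Psmb8 and Psmb9. Menin at Tap1 covered 841 and 0 bp in NUP98-HOXA9 and 2163 and 567 bp in NUP98-HOXD13, and H3K4me3 2823 and 2509 bp. B2m had 2323 and 686 bp of MLL1, 1404 and 511 bp, 2641 and 1342 bp, and 2466 and 367 bp. Tap1 had the longest MLL1 coverage of the set, and it was longer after treatment in NUP98-JARID1A, whereas B2m was shorter in all 4 lines. Tap1 stood at 113% of DMSO in NUP98-JARID1A, beside a median of 129% over all genes. Bst2 had 983 and 640 bp, 835 and 303 bp, 1061 and 851 bp, and 1048 and 440 bp. Ifi35, an interferon-induced leucine zipper protein, had 1456 and 509 bp, 1328 and 389 bp, 1244 and 1000 bp, and 1281 and 981 bp. Menin covered 0 bp of Ifi35 in NUP98-HOXA9 and 566 and 525 bp in NUP98-HOXD13, and H3K4me3 562 and 433 bp.

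Menin over the set was nearly absent after VTP50469 in NUP98-HOXA9 and partly retained in NUP98-HOXD13. In NUP98-HOXA9 all 16 bound genes lost it (all genes 96.6%), and all 21 covered genes were at or below 50% (all genes 98.7%). The summed coverage went from 8977 to 273 bp, and after treatment the whole list held 403 regions. In NUP98-HOXD13 7 of 29 lost Menin (24.1%, all genes 8.74%): Gbp2, Gbp3, Irf7, Mavs, Eif2ak2, Adar and B2m. There 10 of 31 covered genes were at or below 50% (32.3%, all genes 13.5%), and the sum was 27428 and then 16531 bp, or 60.3% (all genes 79.0%). In lists of equal length the losses in NUP98-HOXD13 were 2 of 23 (all genes 6.34%) and 4 of 27 genes were at or below 50% (all genes 9.93%), so both counts depend on the list lengths.

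Many genes of the set carried MLL1 without a Menin region. In NUP98-HOXA9 with DMSO these were 19 of 35 MLL1-bound genes (54.3%, all genes 38.5%), and in NUP98-HOXD13 9 of 38 (23.7%, all genes 5.53%): Ifih1, Ifit2, Irgm1, Isg15, Oas3, Oasl1, Parp14, Tgtp1 and Tgtp2. The 4 MLL1 losses of NUP98-HOXA9 all fell among the 19 genes without Menin, and 0 of the 16 with both lost MLL1. Over all genes the shares were 10.2% without Menin and 0.0334% with both. In NUP98-HOXD13 7 of the 9 genes without Menin lost MLL1 (77.8%, all genes 85.9%), as did 5 of the 29 with both (17.2%, all genes 7.89%). Irgm1 and Parp14 count among the losses without Menin in both lines. They were selected on MLL1 loss, so these shares are not read against those over all genes. Menin and MLL1 lists of NUP98-HOXA9 differ in time, at 96 h and 72 h. Among the 9 genes, the MLL1 fold in DMSO ran from 4.21 at Oasl1 and 4.46 at Ifit2 and Tgtp1 to 15.4 at Ifih1, beside a median of 12.0 over the set, and the part of region strength in this split was not tested. MLL1 without H3K4me3 was found at 14 of 35 genes in NUP98-HOXA9 (40.0%, all genes 20.2%).

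H3K4me3 over the set was similar in extent in both conditions. Its summed coverage was 19088 and 20762 bp, with 109% left (all genes 108%). Of 21 marked genes 1 lost its region, Igtp (4.76%, all genes 3.95%), and 2 of 23 covered genes, Igtp and Irgm1, were at or below 50% (8.70%, all genes 5.68%). A gene-end region appeared after VTP50469 at 4 of 24 unmarked genes (16.7%, all genes 4.64%): Trim21, Usp18, Irgm2 and Gbp2. Their covered lengths were 389, 806, 386 and 606 bp, each from 0 bp in DMSO. The −log10 q of the new regions was 9.57, 14.5, 3.28 and 5.18 in the same order, so Irgm2 falls away with a minimum of 5. Usp18, Irgm2 and Gbp2 had shorter MLL1 regions after treatment in this line, as did Trim21 (974 and 607 bp).

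Another 64 genes of the interferon pathway, from a list written for comparison, were all found in the annotation. MLL1 was lost at 5 of 51 bound genes in NUP98-HOXA9 (9.80%, all genes 3.93%), 9 of 49 in NUP98-HOXD13 (18.4%, all genes 12.2%), 1 of 44 in NUP98-JARID1A (2.27%, all genes 1.01%) and 14 of 34 in NUP98-NSD1 (41.2%, all genes 86.2%). Covered length was at or below 50% at 15 of 56, 32 of 54, 4 of 47 and 32 of 40 covered genes in the same order (all genes 12.8%, 30.4%, 2.51% and 94.1%), and the sums left were 64.6%, 42.3%, 102% and 30.9% (all genes 76.6%, 58.3%, 131% and 9.40%). The 7 receptor and kinase genes of the pathway lost no MLL1 region in NUP98-HOXA9, NUP98-HOXD13 or NUP98-JARID1A, where the shares over all genes leave few losses to count among 7, and lost 2 of 5 in NUP98-NSD1. The 35 further interferon-stimulated genes lost 5 of 27, 7 of 24, 1 of 21 and 8 of 18 regions across the 4 lines. Menin was lost at 22 of 23 of the 64 genes in NUP98-HOXA9 and 8 of 41 in NUP98-HOXD13 (all genes 96.6% and 8.74%), and H3K4me3 at 1 of 36 (all genes 3.95%).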

How the data were processed

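Per the labels, ChIP-seq libraries of mouse leukaemia cells were sequenced from input and from MLL1 (Bethyl A300-086A), Menin and H3K4me3 precipitates. Per the submitters' processing notes, the build was mm10 and the tools included MACS2, STAR 2.7.5a, bedtools, Picard 2.9.4, SAMtools and bcl2fastq 2.20.0.422. Roles, settings and control libraries of these tools were not given in the sources used here. The authors deposited 1 list of regions per library, with a fold over background (a ratio), a −log10 q value and a score per region, and the score was not used. Regions reach down to a −log10 q of 2.00. Sequencing depth is unknown from these lists.

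Gene ends and promoters came from RefSeq GRCm38.p6, whose chromosomes are those of mm10. A region counted with an overlap of 1 bp. Only chromosomes 1 to 19 and X were used, which leaves out 39 to 236 regions per list. Calls were computed with Python 3.11.15, pandas 2.3.3 and numpy 2.4.6 and checked on simulated lists. The labels' antibody, cell line, time and agent set the groups. With 1 library per condition no test was run. Members and comparison lists were chosen with earlier results of these data known. The rule for genes given in every list took those lost in 3 or more MLL1 pairs, the 5 with the longest MLL1 coverage, the 5 largest falls and 5 largest rises of covered length, and those in the top 1% of fold of a DMSO list; other genes given in full were added after their values were seen. Alternatives were lists of equal length (the longer list kept its regions of highest −log10 q), −log10 q of at least 5, an overlap of 200 bp, the 5′ end alone and a span of 1 kb. Leaving out the 6 genes selected on MLL1 loss was added after seeing the data.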

Additional observations from a re-analysis of the deposited data

Results flagged for a closer look

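MLL1 covered length was at least 200% of DMSO in 1 line and at most 50% in another at 3 genes, while opposite directions of smaller size, as at Trim14, Trim25 and Tap1, were more common. These differences were not tested, since each condition had 1 library. Irf7 stood at 200% of its DMSO value in NUP98-JARID1A and at or below 50% in NUP98-HOXD13. Its counted span reaches the neighbour Phrf1. In lists of equal length Irf7 had 38.4% left in NUP98-JARID1A, which ends the opposite direction. Oas3 stood at 389% in NUP98-JARID1A and at or below 50% in NUP98-NSD1. Zbp1 stood at 345% in NUP98-JARID1A and at or below 50% in NUP98-HOXA9 and NUP98-NSD1. The list of NUP98-JARID1A held more regions after VTP50469 (24950) than in DMSO (15765). In lists of equal length Oas3 stood at 260% and Zbp1 at 345% there.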

How the results depend on the processing

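Cutting both lists of a pair to equal length moved the counts most. Losses of a gene-end region then numbered 7 of 32 for MLL1 in NUP98-HOXD13, 10 of 35 in NUP98-JARID1A and 6 of 23 in NUP98-NSD1, and for Menin 0 of 0 in NUP98-HOXA9 and 2 of 23 in NUP98-HOXD13. Genes at or below 50% of their covered length numbered 9 of 35 for MLL1 in NUP98-JARID1A and 17 of 25 in NUP98-NSD1, and for Menin 1 of 1 in NUP98-HOXA9 and 4 of 27 in NUP98-HOXD13. MLL1 at Irf7 in NUP98-JARID1A turned from longer to shorter, with 38.4% left. The equal lists held 1036 regions for MLL1 in NUP98-NSD1 and 403 for Menin in NUP98-HOXA9, so few genes could be compared there. Without the 6 genes selected on MLL1 loss, 2 of 29 genes lost MLL1 in NUP98-HOXA9 and 1 of 17 was at or below 50% for H3K4me3. The other counts of these kinds stayed within 1.5 times under every alternative. Among the values of single genes, 10 moved and 199 stayed with a −log10 q of at least 5, and 6 moved and 210 stayed with a span of 1 kb. With lists of equal length 21 moved, 1 reversed and 160 stayed. Without those 6 genes the median MLL1 fold in DMSO was 11.5 in NUP98-NSD1 and 9.24 in NUP98-JARID1A. No paired analysis was possible because each pair had 1 library per condition. Depth is unknown, so an unlisted region may be one not detectable at that library's depth.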
